A study of Mus musculus with 7 samples.

Results

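The conjugation enzymes of phase II metabolism were followed in mouse precision-cut liver slices (PCLS), which are thin living sections of liver kept in culture. Members were the protein-coding genes whose symbols in the GENCODE annotation of GRCm38 belong to the UDP-glucuronosyltransferases (UGT; Ugt1a, Ugt2a, Ugt2b and Ugt3a), the cytosolic glutathione S-transferases (GST; Gsta, Gstk, Gstm, Gsto, Gstp, Gsts, Gstt and Gstz), the microsomal GST (MGST) or the sulfotransferases (SULT), and that had at least 1 count in any library. The names fitted 67 genes. Of these, 45 had a count and were members, of 26086 genes with a count in a table of 55487 genes, and 22 had none. The 45 members were 14 UGT, 21 cytosolic GST, 3 MGST and 7 SULT genes, and the 22 without a count were 7 UGT, 1 cytosolic GST (Gstt4) and 14 SULT genes. Gstk1, whose enzyme is found in mitochondria and peroxisomes, is counted here with the cytosolic GST genes.

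The slices came from the livers of healthy adult male Balb/c mice, measured 250 µm in thickness and 3 mm in diameter, and were cultured for 3 days in Williams' E medium with glutamine and antibiotics, on a shaker. The CTR group had 3 libraries of slices without drug, and the VPA group had 4 libraries of slices kept in 2.5 mM valproic acid sodium salt; no other agent or allele separated them. According to the study's methods, each biological repeat was the liver of a different mouse, and VPA was also present while the slices were cut. The titles also carry a slice culture number, which CTR replicate 1 shares with VPA replicate 4 (72), CTR replicate 2 with VPA replicate 2 (74) and CTR replicate 3 with VPA replicate 3 (71), while VPA replicate 1 stands alone (73); the labels do not say whether equal numbers mark the same liver. All 7 libraries were of cultured slices from otherwise untreated animals, and no library of fresh liver was analysed here. The libraries were made from the 3′ ends of transcripts, so that 1 transcript gives about 1 read whatever its length, and levels (CPM, counts scaled to the size of the library after TMM normalization) were compared between genes without division by length.

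Phase II enzymes attach a water-soluble group to drugs, hormones, bile pigments and reactive metabolites so that they can leave the cell. UGT enzymes in the endoplasmic reticulum transfer glucuronic acid from UDP-glucuronic acid, GST enzymes add glutathione to electrophiles, and SULT enzymes transfer sulfate from the donor PAPS. The hepatocyte is the main site of these reactions in the liver, and VPA itself is cleared in large part as a glucuronide, which ties the drug given to the slices to the UGT family.

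The libraries held 1400887 to 4773750 counts, so that the 3 counts that a value of 0 allows stood at 0.591 to 2.41 CPM. Of 30 hepatocyte markers, 23 passed a filter on low counts. The 30 summed to 11169 to 23817 CPM in the CTR and 7368 to 20471 CPM in the VPA libraries, of which Trf alone gave 1758 to 8931 CPM. Tat, Pck1, Cyp8b1, Cyp7b1, Cyp2f2 and Slc27a5 did not pass that filter, and Ass1, a urea cycle gene on that list, was at 0 in every library. The 14 markers of activated stellate cells summed to 3683 to 6083 CPM without and 1985 to 2791 CPM with VPA, and 13 of the 14 had a fold change below 0. The 14 markers of liver endothelium summed to 448 to 501 CPM without and 134 to 422 CPM with VPA, with 9 of 11 tested below 0. These lists separated the groups without overlap while the hepatocyte sum overlapped, and their part in the values of the members was not tested. In such bulk libraries, fewer cells of a type and less RNA per cell cannot be told apart.

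Of the 45 members, 26 passed the filter on low counts and were tested, namely 7 UGT, 16 cytosolic GST, 1 MGST and 2 SULT genes. None of the 26 was called by edgeR at an adjusted p under 0.05, in a table where 0.00919% of the 10876 genes tested were called higher and 0% lower with VPA. limma-voom also called 0 members (0.00919% of all genes higher, 0% lower), as did DESeq2, which called 0.256% of its 15261 genes higher and 0.754% below CTR. At an unadjusted p under 0.05, edgeR had 1 member with a higher level in VPA slices (Sult1d1; 3.85% of the members against 3.65% of all genes) and 0 with a lower level (4.62% of all genes), limma-voom again had Sult1d1 alone (5.09% of all genes higher, 10% lower), and DESeq2 had Gstm4, Sult1d1 and Ugt2b1 higher (1.86% of all genes) and Gstp3 lower (2.69%). Gstm4 and Gstp3 did not pass the edgeR filter, and all or nearly all of their counts lay in the group where they were higher, so neither is read as a call. The median log2 fold change was -0.03 over the 26 members and -0.06 over all genes, with 13 members above 0 (45.8% of all genes) and 13 below it (54.2%). A common biological coefficient of variation of 0.609 describes how widely libraries of a group differed in this table. The plot of every tested member by library shows that spread for the conjugation genes.

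**Figure D1:**
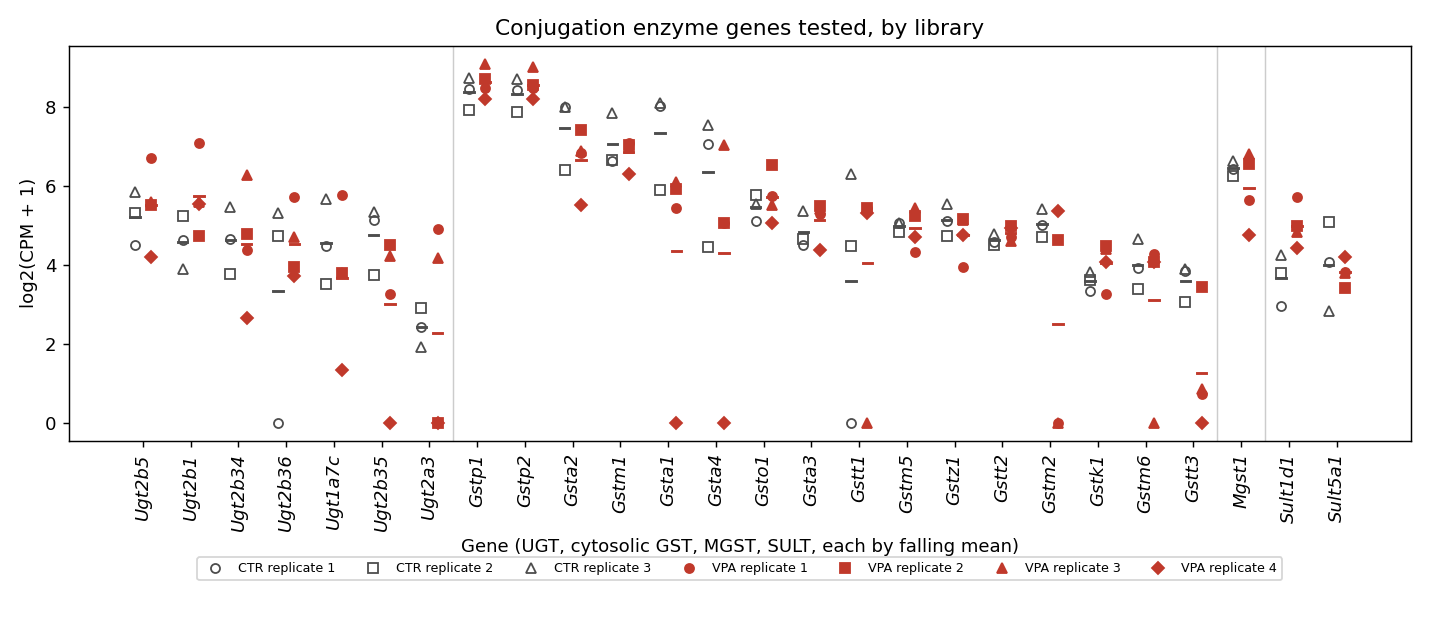
Level of each of the 26 tested members in the 7 libraries, as log2(CPM + 1), with open grey symbols for CTR and filled red symbols for VPA; short bars are the means of these log values, and vertical lines separate UGT, cytosolic GST, MGST and SULT genes. Sult1d1 is the gene whose 4 VPA points all lie above its 3 CTR points, and several genes have single points at 0.

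By family, the summed level of all members overlapped between the groups in each case. The UGT genes together stood at 177.5 ± 59.2 (SD, n = 3) in CTR and 223 ± 138 CPM (SD, n = 4) in VPA slices, a log2 ratio of means of 0.33. The cytosolic GST genes, the most abundant family, stood at 1591 ± 585 in CTR and 1360 ± 331 CPM in VPA slices, a log2 ratio of -0.23; without Gstp2, whose reads cannot be told from those of Gstp1, the sums were 1262 ± 495 and 979 ± 248.9 CPM (log2 ratio -0.37). The MGST genes stood at 87.5 ± 13.2 and 75.1 ± 38.7 CPM (log2 ratio -0.22). The SULT genes stood at 35.8 ± 13.4 and 56.0 ± 15.0 CPM (log2 ratio 0.65), the largest ratio among the 4 families, and here too CTR replicate 2 at 51.2 CPM was above the lowest VPA library at 41.5 CPM. Sult1d1 carried most of it, the Sult1 genes having a log2 ratio of 1.19 and the Sult2 and later genes one of -0.13. The ratios of UGT, cytosolic GST and MGST lay within the pooled SD of the libraries on the log2 scale (0.76, 0.46 and 0.76) and that of SULT above its own (0.44), with overlapping groups in each family. The ratios of UGT, cytosolic GST and MGST change sign when some single libraries are left out, whereas that of SULT stayed between 0.48 and 0.99.

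Side by side within slice culture numbers 72, 74 and 71, the summed SULT level was higher with VPA in all 3, at 27.6 and 41.5, 51.2 and 62.7, and 28.5 and 45.8 CPM for CTR and VPA. The summed UGT level was lower with VPA in all 3, at 132 and 95.9, 156 and 145, and 244.5 and 243.3 CPM, so that its ratio above 0 came with VPA replicate 1, at 408 CPM, which shares its number with no CTR library. The cytosolic GST sum was lower in 72 and 71 and higher in 74, and the MGST sum lower in 72 and higher in 74 and 71. With 3 such pairs these values are a description.

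**Figure D2:**
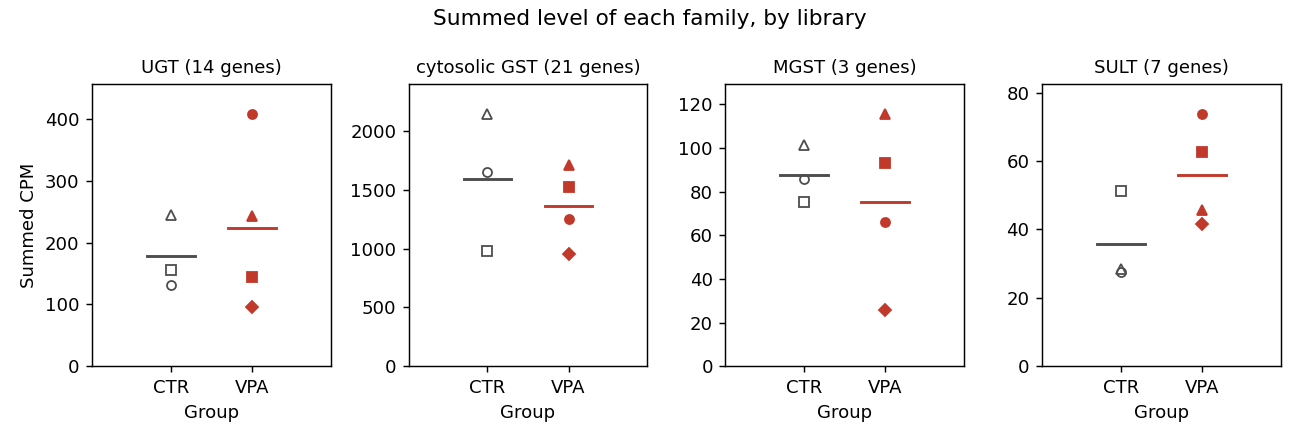
Summed CPM of all members of each family in each library, CTR (open grey) and VPA (filled red), with short bars at the group means and the number of genes in the title of each panel; each vertical axis starts at 0. In all 4 panels the CTR and VPA points overlap.

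Most UGT transcripts counted were of the Ugt2 genes, which gave 80.1 to 354.5 CPM of summed level in each library against 12.9 to 53.5 CPM for Ugt1a. Ugt2b5 was measured at 21.7, 38.2 and 56.5 CPM in the CTR libraries and at 102.5, 44.3, 47.4 and 17.4 CPM in the VPA libraries. Its highest and its lowest value were both VPA libraries (replicates 1 and 4), so that the groups overlapped throughout, with a log2 fold change of 0.45 ± 0.58 (SE; edgeR adjusted p = 0.937) that turned to -0.09 without VPA replicate 1.

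Ugt2b1 was measured at 23.6, 36.3 and 13.7 CPM in CTR and at 134.5, 25.5, 46.6 and 45.3 CPM in VPA slices. VPA replicate 1 stood far above the rest and VPA replicate 2 lay among the CTR values. The log2 fold change was 1.34 ± 0.62 (SE), with an adjusted p of 0.636 in edgeR and 0.552 in DESeq2, and ranged from 0.65 to 1.73 as single libraries were left out. Within slice culture numbers the VPA level was above CTR in 72 and 71 and below it in 74, and with that number as a block the log2 fold change was 0.70.

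Of the other tested Ugt2 genes, Ugt2b34 (0.27) and Ugt2b36 (0.27) had log2 fold changes above 0 and Ugt2b35 (-1.24) below it, each with an adjusted p of at least 0.877 (edgeR). Ugt2a3 had 0 counts in VPA replicates 2 and 4, where the other libraries predict 32.1 and 13.1, and its log2 fold change was 1.30 ± 1.69 (SE) in edgeR and -2.20 in limma-voom, so that it has no settled direction. Ugt2b36 had no count in CTR replicate 1 although its level in the other libraries would give 70.3 counts there. Ugt2b37 was counted in VPA replicate 1 alone (15 counts), in the library where Ugt2b1, Ugt2b5, Ugt2b36 and Ugt2a3 were also highest, and Ugt2b38 had 4 counts, all in CTR replicate 2.

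The Ugt1a enzymes, which include the bilirubin and phenol conjugating forms, are built from alternative first exons joined to shared last exons, so 3′ reads cannot tell them apart. In the GRCm38 transcripts, the last 300 bases of Ugt1a10, Ugt1a2, Ugt1a6a and Ugt1a6b were shared with other Ugt1a genes over every 50-base word (100%), while the longest transcript of Ugt1a7c ends further downstream and shared none (0%). In 5 of the 7 libraries most reads of the locus were listed under Ugt1a7c, the exceptions being CTR replicate 2 and VPA replicate 4. Ugt1a7c was measured at 21.3, 10.4 and 49.3 CPM in CTR and 52.9, 12.9, 12.9 and 1.51 CPM in VPA slices. The groups overlapped across their whole range, VPA replicate 4 being lowest with 2 counts (log2 fold change -0.42 ± 0.98, SE; edgeR adjusted p = 0.964). Whether transcripts of other Ugt1a genes reach this further end was not tested, so the reads are given as listed.

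Ugt1a6b had 31 counts in CTR replicate 2, 19 in VPA replicate 4 and 0 in the other 5 libraries. In VPA replicate 4, where Ugt1a7c had 2 counts, the reads of the locus were therefore listed mainly under Ugt1a6b. Summed over the 5 Ugt1a members the locus stood at 22.5, 23.8 and 51.0 CPM in CTR and 53.5, 12.9, 13.7 and 15.9 CPM in VPA slices, with the values again overlapping and VPA replicate 1 alone among the high ones. Ugt1a2 gave 36 of the 121 counts of the locus in CTR replicate 2 and 0 in the other libraries, Ugt1a6a had at most 2 counts in a library, and Ugt1a10 had 1 count in each of 2 CTR libraries. Ugt3a1, whose human counterpart uses UDP-N-acetylglucosamine in place of UDP-glucuronic acid, had 5 counts in CTR replicate 1 and 0 in the other libraries. The 7 UGT genes without a count included 4 of the Ugt1a locus.

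The pi class gave the most abundant members. Gstp1 and Gstp2, which detoxify electrophilic drugs and lipid aldehydes, lie beside each other on chromosome 19 (Gstp1 at 4035407 to 4037985 and Gstp2 at 4040285 to 4046023, minus strand, GRCm38), and Gstp3 lies at 4057477 to 4059569 on the same strand. Their coding sequences have 633 bases each. The last 120 coding bases up to the stop codon are printed because they show which of the 3 genes a 3′ read can be assigned to; in Gstp1 and Gstp3 capitals mark the bases at which these differ from each other, and Gstp2 has 0 differences from Gstp1 in this stretch.
Gstp1 coding end: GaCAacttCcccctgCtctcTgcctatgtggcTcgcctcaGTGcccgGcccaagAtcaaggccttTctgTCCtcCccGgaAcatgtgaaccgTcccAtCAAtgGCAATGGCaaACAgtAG
Gstp2 coding end: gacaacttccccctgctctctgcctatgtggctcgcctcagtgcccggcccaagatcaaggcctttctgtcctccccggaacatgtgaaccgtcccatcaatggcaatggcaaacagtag
Gstp3 coding end: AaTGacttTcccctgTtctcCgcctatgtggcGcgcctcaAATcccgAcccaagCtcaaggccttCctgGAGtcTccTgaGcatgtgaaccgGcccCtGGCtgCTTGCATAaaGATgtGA

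Gstp1 and Gstp2 were identical at 98.1% of their coding bases (621 of 633), and every 50-base word of the last 300 transcript bases of one was found in the other. Gstp1 and Gstp3 were identical at 71.6%, with 37 differences in the 120 bases above and no shared word at the end of the transcript. The 3′ ends thus separate Gstp3 from the pair but not Gstp1 from Gstp2, nor fully from the pseudogene Gstp-ps on chromosome 1, which shares 185 of the 251 words and was counted at 134 to 254 CPM. The genes Gstp3 and Gstp-ps were named after their values were seen.

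Gstp1 was measured at 347, 241.5 and 423 CPM in the CTR libraries and at 353, 413.5, 540.3 and 291.5 CPM in the VPA libraries. Gstp2 was measured at 339.6, 233 and 413 CPM in CTR and 351, 371, 511 and 289 CPM in VPA slices. The ratio of Gstp2 to Gstp1 counts was between 0.897 and 0.993 in every library, so the pair carries 1 measurement rather than 2, in which the groups overlapped and CTR replicate 2 was lowest. The log2 fold change was 0.25 ± 0.27 (SE) for Gstp1 and 0.21 ± 0.26 for Gstp2 (edgeR adjusted p = 0.915 and 0.937).

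Gstp3 had 15, 36 and 14 counts in the CTR libraries and 0, 3, 0 and 0 counts in the VPA libraries. All 3 CTR libraries, at 5.91 to 7.68 CPM, thus stood above all 4 VPA libraries, of which the highest was 0.922 CPM. It did not pass the edgeR filter, which it could have met only through its CTR values, so the difference is given as counts, 65 in all CTR and 3 in all VPA libraries, and not as a call. Among the 15210 genes with a count that did not pass that filter, 2.91% had all VPA libraries below all CTR libraries and 1.13% above. Each VPA library also had counts for fewer genes (14359 to 16761) than each CTR library (17744 to 19756).

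The promoters of the pi class genes and of Sult1d1 are printed because Gstp1, Gstp2 and Gstp3 lie in 1 cluster with unlike values and Sult1d1 is the 1 member of the 26 tested whose groups did not overlap. Each runs from 250 bases before to 50 bases after the start listed by RefSeq (GRCm38.p6), 5′ to 3′ on the strand of the gene; such an entry matched 32 of the 45 members. Capitals mark AP-1 (TGANTCA), the GC box (GGGCGG), C/EBP (TTGCNNAA) and the half-sites of HNF1 (GTTAAT) and HNF4 (AGTCCA), on either strand.
Gstp1 promoter, chr19:4037863-4038162, minus strand: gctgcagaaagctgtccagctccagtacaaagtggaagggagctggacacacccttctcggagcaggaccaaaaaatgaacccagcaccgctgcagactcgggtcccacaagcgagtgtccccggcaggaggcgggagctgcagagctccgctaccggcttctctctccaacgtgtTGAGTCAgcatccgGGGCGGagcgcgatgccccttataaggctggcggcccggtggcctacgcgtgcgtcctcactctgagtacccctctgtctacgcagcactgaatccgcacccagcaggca
Gstp2 promoter, chr19:4042172-4042471, minus strand: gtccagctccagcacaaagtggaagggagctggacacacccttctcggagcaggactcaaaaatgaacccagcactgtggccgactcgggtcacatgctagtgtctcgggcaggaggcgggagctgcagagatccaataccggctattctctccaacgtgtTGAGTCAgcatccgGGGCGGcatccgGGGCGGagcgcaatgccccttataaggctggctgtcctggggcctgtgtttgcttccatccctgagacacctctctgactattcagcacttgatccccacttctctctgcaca
Gstp3 promoter, chr19:4059398-4059697, minus strand: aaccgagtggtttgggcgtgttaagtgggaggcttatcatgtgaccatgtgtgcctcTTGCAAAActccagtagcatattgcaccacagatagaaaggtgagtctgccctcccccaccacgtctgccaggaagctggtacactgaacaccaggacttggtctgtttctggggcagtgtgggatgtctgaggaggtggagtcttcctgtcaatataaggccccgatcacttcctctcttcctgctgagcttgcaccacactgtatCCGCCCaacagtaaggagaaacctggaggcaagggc
Sult1d1 promoter, chr5:87568957-87569256, minus strand: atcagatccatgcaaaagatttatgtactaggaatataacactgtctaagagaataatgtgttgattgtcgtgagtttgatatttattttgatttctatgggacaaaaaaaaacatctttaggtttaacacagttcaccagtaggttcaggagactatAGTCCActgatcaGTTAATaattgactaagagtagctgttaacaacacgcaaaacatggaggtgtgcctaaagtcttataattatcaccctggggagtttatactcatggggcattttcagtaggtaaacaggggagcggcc

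Gstp1 and Gstp2 each held an AP-1 match, at positions -74 and -89 from the start, followed by GC boxes, whereas Gstp3 held no AP-1 match, a C/EBP match at -193 and a GC box after the start. Sult1d1 held an HNF4 half-site at -92 and an HNF1 half-site at -79. AP-1 letters occurred in 7.98% of 22862 promoters of the same length and in 9 of the 32 member promoters, the GC box in 35.2% and in 10, C/EBP in 10.8% and in 9, the HNF1 half-site in 7.35% and in 7, and the HNF4 half-site in 14.3% and in 9. The antioxidant response element core (TGACNNNGC, which can share bases with an AP-1 site) occurred in 12.3% of promoters and in 2 members, Gsta3 and Gstm5. The AP-1 letters read the same on both strands and were counted once a promoter, and these matches describe letters in a window only.

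In the alpha class, Gsta1 and Gsta2 had the fold changes farthest below 0 among members with a mean of at least 100 CPM, without a call. At lower levels, Gstt3, Ugt2b35, Gsta4 and Gstm2 also had fold changes below that of Gsta2. Gsta1 and Gsta2, the inducible hepatic forms that also reduce lipid peroxides, and Gsta4, which clears 4-hydroxynonenal, lie on chromosome 9 between 78182774 and 78355788 (GRCm38), with the related genes Gm3776 and Gm10639 between Gsta1 and Gsta2. Gsta1 was measured at 256, 57.8 and 272 CPM in CTR and at 42.4, 58.7, 66.6 and 0 CPM in VPA slices. CTR replicates 1 and 3 were high, CTR replicate 2 lay within the VPA values, and VPA replicate 4 had 0 counts where the mean of the other libraries would give 166. The log2 fold change was -2.20 ± 0.98 (SE), with an adjusted p of 0.617 in edgeR and 0.841 in DESeq2.

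Gsta2 was measured at 254, 83.0 and 253 CPM in CTR and 113, 169, 116 and 44.6 CPM in VPA slices. The same 2 CTR libraries were above all VPA libraries and CTR replicate 2 was below 3 of the 4 (log2 fold change -0.82 ± 0.51, SE; edgeR adjusted p = 0.768). Gsta4, named after its values were seen, was measured at 132, 20.7 and 184 CPM in CTR and 32.0, 32.3, 129 and 0 CPM in VPA slices. Here VPA replicate 3 reached the CTR level, and the log2 fold change was -1.22 ± 1.17 (SE; edgeR adjusted p = 0.904). Gsta3, which conjugates aflatoxin epoxide in mice, stood at 28.6 ± 9.98 in CTR and 35.8 ± 11.1 CPM in VPA slices, with a log2 fold change of 0.33.

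The alpha class values turned on single libraries. Without CTR replicate 2, Gsta1, Gsta2 and Gsta4 each had all VPA libraries below both remaining CTR libraries, as did Gstt3 and Ugt2b35, 5 members in all where 14.2% of the genes tested in that fit did the same, and Gsta1 and Gsta2 passed an unadjusted p of 0.05 in edgeR, 2 of 27 members where 4.14% of all genes were lower at that p, still with 0 adjusted calls. Gsta1 also passed an unadjusted p of 0.05 without VPA replicate 4, where 6.22% of all genes did so in that direction, and the log2 fold change of Gsta4 was -2.35 without VPA replicate 3 and -1.73 without CTR replicate 2. With library totals in place of TMM, all 4 VPA libraries of Gsta1 lay below the 3 CTR libraries, as in 9.89% of the genes tested.

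In VPA replicate 4, the 0 of Gsta1 was shared by Gsta4, Gm3776 and Gm10639, 4 neighbouring genes on the plus strand from 78182774 to 78305525, while Gsta2, on the minus strand beside them, had 59 counts there. Gm3776 and Gm10639, named after their values were seen, had log2 fold changes of -2.44 ± 0.97 and -2.53 ± 0.98 (SE; edgeR adjusted p = 0.573 and 0.565) and, like Gsta1, were highest in CTR replicates 1 and 3. Of the 251 words at the end of Gsta1, 200 were found in Gm3776, and 82.1% in any other gene, so Gsta1 and Gm3776 are uncertain as separate genes; 40.6% of the words of Gsta2 were shared, and none of those of Gsta4. The plot of the alpha class cluster shows the shared zeros of VPA replicate 4 and the low values of CTR replicate 2.

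**Figure D3:**
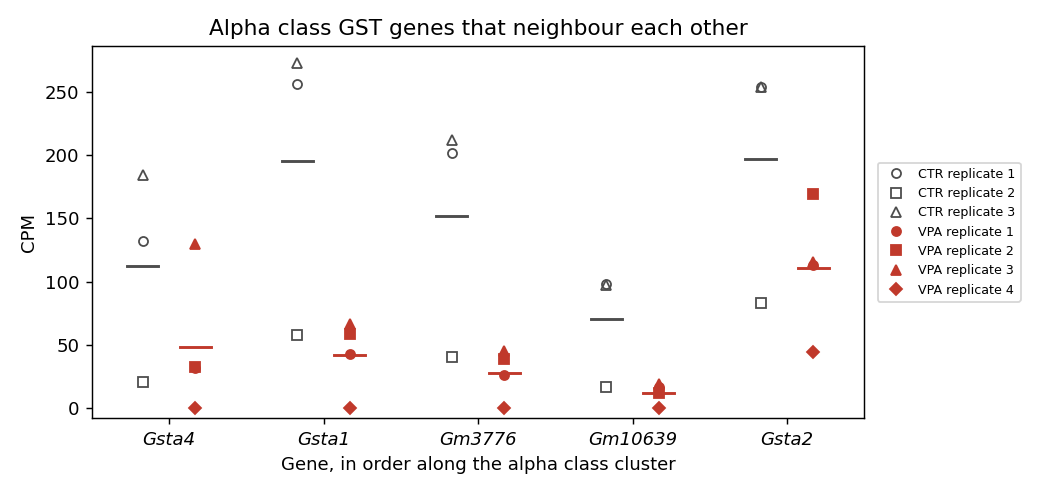
Level in CPM of 5 neighbouring alpha class genes on chromosome 9 in each library, CTR (open grey) and VPA (filled red), in order along the chromosome, with short bars at the group means. VPA replicate 4 is at 0 for Gsta4, Gsta1, Gm3776 and Gm10639 and at 44.6 CPM for Gsta2, and CTR replicate 2 lies near the VPA values for each gene.

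Such zeros were also found in other genes. Among the member values where the other libraries of the gene predict at least 10 counts, 19 of 190 (10%) were 0, beside 5630 of 78050 (7.21%) over all genes with a count. The 19 of the members fell in 6 of the 7 libraries, 5 of them in VPA replicate 4, 4 in CTR replicate 2 and 0 in CTR replicate 3. The largest besides those of Gsta1 and Gsta4 were in Gstt1 and Ugt2b36, both in CTR replicate 1. Over all genes, such zeros numbered 381, 678 and 460 in CTR replicates 1 to 3. In VPA replicates 1 to 4 they numbered 1391, 1453, 683 and 584. How they arose was not tested, and a fold change of a gene with such a value has a wide standard error.

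In the mu class, Gstm1, the main hepatic form, was measured at 98.1, 99.3 and 229 CPM in CTR and 135, 129, 124 and 77.8 CPM in VPA slices. CTR replicate 3 alone was high, and without it the log2 fold change of -0.28 ± 0.35 (SE; edgeR adjusted p = 0.937) turned to 0.21. Gstm5 was measured at 31.9, 27.4 and 32.3 CPM in CTR and 18.9, 36.3, 42.5 and 24.9 CPM in VPA slices. The CTR libraries lay inside the range of the VPA libraries, with a log2 fold change of 0.01 ± 0.33 (SE; edgeR adjusted p = 0.999).

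Gstm2 had 0 counts in VPA replicates 1 and 3 and 40.0 CPM in VPA replicate 4, so that its log2 fold change of -1.01 carried a standard error of 1.35. Gstm4, named after its values were seen, had 0 counts in all 3 CTR libraries and in VPA replicates 1 and 2, 24 counts in VPA replicate 3 and 10 in VPA replicate 4 (DESeq2 adjusted p = 0.448), which is 2 libraries against 5 and not a difference between the groups. Gstm6 stood at 15.9 ± 7.48 in CTR and 12.5 ± 8.39 CPM in VPA slices. Gstm3 had 3 counts in CTR replicate 3 and Gstm7 22 counts in CTR replicate 2, with 0 in the other libraries.

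Of the remaining cytosolic classes, Gsto1, an omega class thioltransferase that also reduces dehydroascorbate, was measured at 33.1, 53.2 and 45.5 CPM in CTR and 52.2, 91.3, 44.2 and 32.5 CPM in VPA slices. VPA replicate 2 was highest and VPA replicate 4 lowest (log2 fold change 0.33 ± 0.37, SE; edgeR adjusted p = 0.925). Gstt1, a theta class enzyme that acts on small halogenated compounds, was measured at 0, 21.1 and 77.3 CPM in CTR and 42.4, 42.4, 0 and 38.5 CPM in VPA slices. Each group held a library at 0, and the log2 fold change of -0.07 had a standard error of 1.495.

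Gstt2, the steadiest of these between libraries, stood at 23.6 ± 2.41 in CTR and 27.1 ± 3.59 CPM in VPA slices (log2 fold change 0.20 ± 0.27, SE; edgeR adjusted p = 0.937). Gstt3, named after its values were seen, was measured at 13.4, 7.29 and 13.7 CPM in CTR and at 0.653, 9.84, 0.803 and 0 CPM in VPA slices, with 3 VPA libraries at 0 or 1 count and VPA replicate 2 among the controls (log2 fold change -1.90 ± 1.26, SE; edgeR adjusted p = 0.811). It overlaps Gm20441 on the same strand. Gstz1, which isomerizes maleylacetoacetate in tyrosine breakdown, had a log2 fold change of -0.35 ± 0.38 and Gstk1, of mitochondria and peroxisomes, 0.56 ± 0.48. Gsto2 did not pass the edgeR filter and stood at 4.33 ± 1.82 in CTR and 1.37 ± 2.18 CPM in VPA slices.

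**Figure D4:**
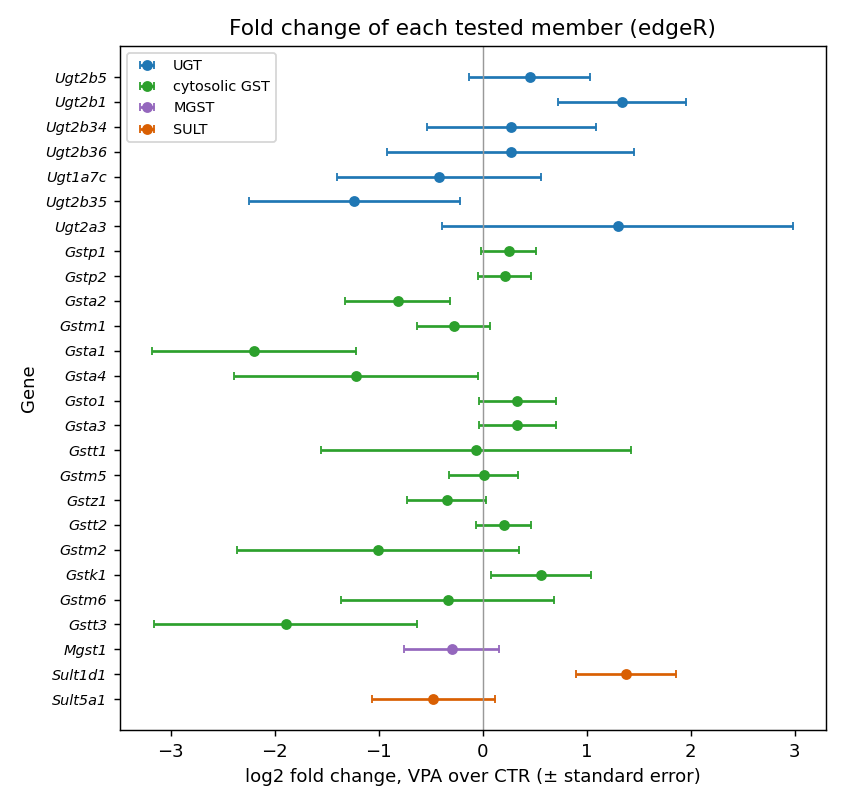
edgeR log2 fold change of VPA over CTR for each of the 26 tested members, with bars of ± 1 standard error and one colour for each family. Of the values, 13 lie above and 13 below 0, from -2.20 for Gsta1 to 1.38 for Sult1d1, and none passed an adjusted p of 0.05.

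The membrane-bound family rested on Mgst1, an enzyme of the endoplasmic reticulum and the outer mitochondrial membrane. It was measured at 85.1, 75.1 and 97.6 CPM in CTR and 48.3, 93.2, 111 and 25.7 CPM in VPA slices. The CTR libraries lay close together inside the range of the VPA libraries, with VPA replicate 4 lowest (log2 fold change -0.30 ± 0.45, SE; edgeR adjusted p = 0.945). Mgst3 had 6 counts in CTR replicate 3 and 16 in VPA replicate 1, and 0 elsewhere. Mgst2 had 2 and 1 counts in CTR replicates 1 and 3 and 11 and 6 counts in VPA replicates 1 and 3. Both are linked to leukotriene synthesis and did not pass the edgeR filter (DESeq2 unadjusted p = 0.24 for Mgst2 and 0.72 for Mgst3).

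Among the sulfotransferases, Sult1d1, which sulfates catecholamines in mice, was the 1 tested member whose groups did not overlap. It was measured at 6.70, 12.8 and 18.1 CPM (17, 65 and 33 counts) in the CTR libraries and at 51.6, 30.8, 27.3 and 20.4 CPM (79, 100, 34 and 27 counts) in the VPA libraries. All 4 VPA libraries stood above all 3 CTR libraries, as in 4.44% of all genes tested, and the nearest values, CTR replicate 3 and VPA replicate 4, lay close together and changed order when library totals were used without TMM. Within slice culture numbers 72, 74 and 71 it was at 6.70 and 20.4, 12.8 and 30.8, and 18.1 and 27.3 CPM for CTR and VPA. The log2 fold change was 1.38 ± 0.48 (SE), with an adjusted p of 0.514 in edgeR and 0.351 in DESeq2, and between 1.06 and 1.70 with single libraries left out. As 1 of 26 tested members it makes a share of 3.85%, below that over all genes.

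Sult5a1 was measured at 15.8, 32.7 and 6.03 CPM in CTR and 13.1, 9.53, 12.9 and 17.4 CPM in VPA slices, the CTR libraries holding both the highest and the lowest value (log2 fold change -0.48 ± 0.59, SE; edgeR adjusted p = 0.937). Sult1e1, which inactivates estrogens, had 8, 25 and 0 counts in CTR and 0, 51, 0 and 0 in VPA libraries. Sult2a8, a bile acid sulfotransferase of mouse liver, had 5, 0 and 0 counts in CTR and 0, 21, 7 and 5 in VPA libraries. Both genes had libraries with and without counts in each group. Sult1a1, which sulfates phenols, had 4 counts in CTR replicate 2 and 14 in VPA replicate 1, Sult1c2 had 8 counts in CTR replicate 3, and Sult2b1 had 1 count in VPA replicate 2. Sult1d1 and Sult5a1 were the SULT genes with counts in every library, and 14 had none in any.

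The enzymes depend on partner genes, of which 8 lists were examined with the same fit. edgeR called 0 genes in any list at an adjusted p under 0.05, as did limma-voom, and of the 73 genes tested 5 were lower (4.62% of all genes) and 0 higher (3.65% of all genes) at an unadjusted edgeR p of that size. DESeq2 called 1, Ugdh, the enzyme that oxidizes UDP-glucose to UDP-glucuronic acid, the co-substrate of glucuronidation. Ugdh was measured at 260.4, 175 and 226 CPM in CTR and at 132.5, 109, 136.5 and 89.9 CPM in VPA slices. All VPA libraries were below all CTR libraries, as in 7.41% of all genes tested, with a log2 fold change of -0.92 ± 0.21 (SE) and an adjusted p of 0.295 in edgeR and 0.0346 in DESeq2, which called 0.754% of all genes lower. The difference between the tests leaves it a call of DESeq2 alone, the tool that the study used. Of the 8 tested genes of UDP-glucuronic acid supply, 3 had a fold change above and 5 below 0, with a median of -0.27, and Ugdh was the 1 at an unadjusted p under 0.05.

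Of 12 tested genes of glutathione synthesis and recycling, 3 had a fold change above and 9 below 0 (median log2 fold change -0.40), and Gclc and Slc7a11 were the ones with an unadjusted edgeR p under 0.05, both with lower levels in VPA slices. Ggt5, a gamma-glutamyl transferase, was at 0 to 5.12 CPM in CTR and 5.62 to 16.6 CPM in VPA slices, and because it passed the filter through its VPA values this is given as levels only. Gclc, the catalytic subunit of the rate-limiting step, was measured at 279, 139 and 448 CPM in CTR and 120.1, 85.8, 234 and 93.7 CPM in VPA slices. Its CTR replicate 2 lay below VPA replicate 3, so the groups overlapped (log2 fold change -1.11 ± 0.47, SE; edgeR adjusted p = 0.598, DESeq2 0.436). Slc7a11, the cystine carrier, stood at 47.2 ± 12.1 in CTR and 22.3 ± 11.8 CPM in VPA slices (edgeR adjusted p = 0.575).

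Among 18 tested regulators of conjugation genes, 7 had a fold change above and 11 below 0, and the 2 whose unadjusted edgeR p was under 0.05, with lower levels in VPA slices, were Nfe2l2 and Keap1, the activator of antioxidant genes and its inhibitor. Nfe2l2 was measured at 399, 181.5 and 598 CPM in CTR and 160.0, 177, 248 and 147 CPM in VPA slices. CTR replicate 2 lay among the VPA values, as it did for Gsta1, although within each of the 3 shared slice culture numbers both Nfe2l2 and Gclc were lower with VPA, and the log2 fold change was -1.10 ± 0.38 (SE; edgeR adjusted p = 0.514, DESeq2 0.242). Keap1 stood at 101.6 ± 20.1 in CTR and 67.3 ± 15.7 CPM in VPA slices (edgeR adjusted p = 0.571). The xenobiotic receptor gene Nr1i3 was at 0 in every library, and Nr1i2 had counts in 3 of the 7.

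**Figure D5:**
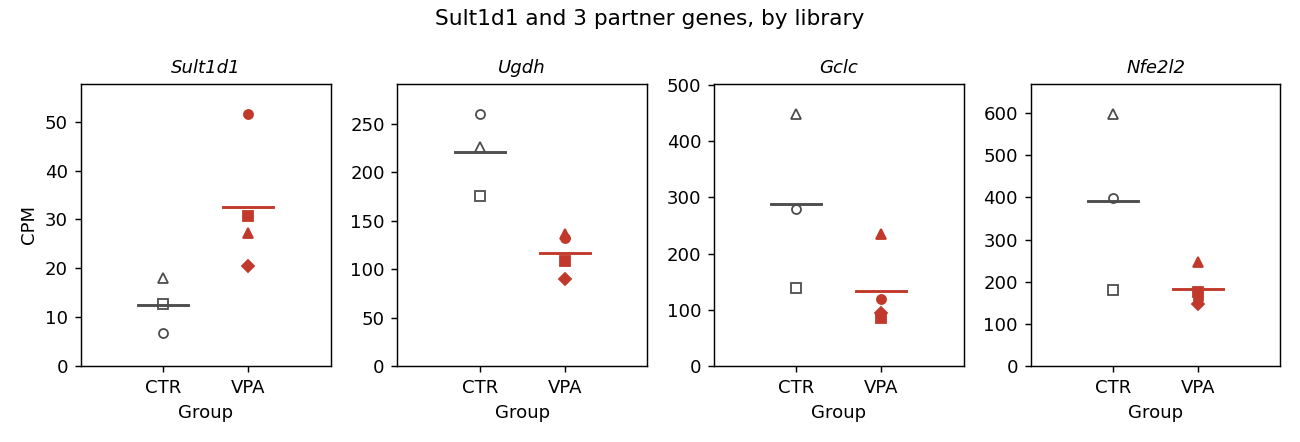
Level in CPM of Sult1d1 and of the partner genes Ugdh, Gclc and Nfe2l2 in each library, CTR (open grey) and VPA (filled red), with short bars at the group means and each vertical axis starting at 0. The VPA points of Sult1d1 lie above and those of Ugdh below all CTR points, while CTR replicate 2 overlaps the VPA points for Gclc and Nfe2l2.

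In the other lists every tested gene had an unadjusted edgeR p of 0.05 or more. PAPS supply had 3 of 8 tested genes above and 5 below 0 (median log2 fold change -0.19), conjugate export 3 of 9 above and 6 below (-0.04), conjugate hydrolysis 7 of 10 above and 3 below (0.79) and methyl conjugation 0 of 7 above and 7 below (-0.57). Of the acetyl and amino acid conjugation list, Glyat alone was tested (-1.52). Abcc2, the canalicular exporter of glucuronide and glutathione conjugates, was the most abundant exporter, at 178 ± 82.9 in CTR and 210 ± 88.9 CPM in VPA slices. Abcc3, the basolateral glucuronide exporter, had 0 counts in 3 of the 4 VPA libraries and 10.8 to 40.0 CPM in the CTR libraries, with 14.5 CPM in VPA replicate 3 between them. It passed the filter mainly through its CTR values, so its edgeR adjusted p of 0.751 is not read as a test of the difference.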

How the data were processed

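RNA of 7 PCLS cultures (3 CTR, 4 VPA) had been measured by the authors with 3′ end libraries and single-end reads, which they mapped with STAR to GRCm38 (mm10 in the submitters' processing notes) and assembled with StringTie. They deposited raw counts, 1 whole number per Ensembl gene and library, without normalization. The counting program, its use of strand and its treatment of reads with several matches are not given in the sources used here. Symbols and coordinates came from GENCODE M21, which named 55141 of 55487 genes, and promoters from RefSeq (GRCm38.p6).

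From the counts, edgeR 4.0.16 in R 4.3.3 was run with TMM, filterByExpr, a robust quasi-likelihood fit and condition as the only term, over 10876 genes with Benjamini-Hochberg adjustment at 0.05. Alternatives were DESeq2 1.42.0, limma-voom (limma 3.58.1), other scalings and filters, blocks and leaving out each library. DESeq2 was the tool that the authors used for differential expression. Col1a1, which the paper reports as lower with VPA, had an adjusted p of 0.112 in edgeR and 4.39e-07 in DESeq2. Sums of CPM and overlaps are descriptions. The fit was tested on simulated data with the same dispersion for all genes, which did not model the zeros found in single libraries. Libraries of a group differed by more than sampling noise (chi-square per degree of freedom 14.7 to 27.3), and each was counted as 1 replicate. The floor of 3 counts covers counting error only. The standard errors given with edgeR fold changes come from the quasi-likelihood fit, which takes in the spread between libraries.

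The members and the 8 pathway and 8 marker lists were chosen with earlier results of these data known. Values in every library are given for the 2 members with the highest mean of each subfamily and for tested members that were called, or that did not overlap at a mean of at least 5 CPM; others are given by group means, fold changes, ranges or counts, and a value in every library given beyond this rule was chosen after the values were seen. Reads of Gstz1, Gstm5, Sult1a1, Sult2b1 and the Ugt1a members may include those of genes on the other strand that overlap them.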

Additional observations from a re-analysis of the deposited data

Results flagged for a closer look

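In the VPA group of 4 libraries, 3 of 30 genes examined had 1 library set apart from the others by a wide gap relative to the range, where chance gives about 0.05 of groups. Gstm6 was at 0 CPM in VPA replicate 3 and at 15.7 to 18.3 CPM in the other 3. Gstt1 was at 0 CPM in VPA replicate 3 and at 38.5 to 42.4 CPM in the other 3. Gstt3 was at 9.839 CPM in VPA replicate 2 and at most 0.803 CPM in the other 3. Their causes were not tested.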

How the results depend on the processing

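The count of called members was 0 under all 17 alternatives, and the median log2 fold change of the tested members ran from -0.33 to 0.28 with single libraries left out and from -0.11 to 0.22 otherwise. Members at an unadjusted p under 0.05 numbered 1 of 26 in edgeR (8.28% of all genes tested, both directions), 3 of 45 without a filter (6.41%), 2 of 15 with at least 10 counts in every library (14%), 4 of 45 in DESeq2 (4.54%), 0 with a replicate block by replicate number (9.05%; 1 and 7.98% by slice culture), and 1 to 3 with single libraries left out (4.66% to 10.3%), where Sult1d1 was lost without CTR replicate 1, CTR replicate 2 or VPA replicate 1. Members that did not overlap numbered 1, or 2 without a filter (7.3% of all genes with a count), and 2 to 7 with single libraries left out, the 7 of 27 being without CTR replicate 2, where 8.44% of all genes tested lay above and 14.2% below (5.47% to 7.83% and 9.58% to 12.3% for the other libraries). Gstp3, which met the filter through its CTR values, is in the counts of both kinds without CTR replicates 1 and 3 and VPA replicates 1, 3 and 4 and without a filter. The DESeq2 count includes Gstp3 and Gstm4. Under library totals the 1 member that did not overlap was Gsta1, while the 1 at an unadjusted p under 0.05 in edgeR was still Sult1d1. The log2 fold change of Gstm1 ran from -0.50 to 0.21 with single libraries left out, the latter without CTR replicate 3, and that of Ugt2b5 from -0.0874 (without VPA replicate 1) to 0.79, and was -0.11 with the replicate block by slice culture. DESeq2 called 1 partner gene, Ugdh (log2 fold change -0.92), against 0 in edgeR. The causes were not tested beyond the fewer libraries or genes of each setting.

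Same-numbered CTR and VPA libraries deviated together weakly (correlations 0.0256, 0.0546 and 0.107 by slice culture, -0.0539, 0.0546 and 0.107 by replicate number). The labels do not say that a number marks one liver, so the block was kept as an alternative, and 0 members were called with or without it. Depth limits genes below about 2.41 CPM, where 1 library's 3 counts lie, and 8 of the 45 members had a mean under 1 CPM.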
